A study of Mus musculus with 6 samples.

Results

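The 10 genes described here encode cohesin, its loading factors, its regulators and the DNA-binding protein that positions it. They are Rad21, Smc3, Smc1a, Stag1, Stag2, Nipbl, Mau2, Pds5a, Pds5b and Ctcf, chosen by name, and all 10 were present among the 18429 genes of the count table. Transcripts were counted by MARS-seq, in which flow-sorted single cells are lysed in the wells of a plate and each captured RNA is tagged near its 3′ end with a unique molecular identifier (UMI), so that 1 UMI stands for 1 captured molecule. The cells were mouse bone marrow-derived macrophages grown in L929-conditioned medium, from animals of a mixed strain background that includes C57BL/6 and that carried creERT2 on both Rosa26 alleles in all 6 groups. Wild-type animals had intact Rad21 alleles, and Rad21-/- cells came from animals with floxed Rad21, in which Cre excises the flanked segment after activation of its estrogen-receptor domain. Cultures received fresh medium with 200 nM 4-hydroxy-tamoxifen after 96 h, wild-type included per the labels, and were used at day 7. Each genotype was left untreated or was exposed to lipopolysaccharide (LPS, a bacterial cell wall component) at 10 ng/ml for 2 or 8 h. The study used animals of both sexes, aged from 6 weeks to 6 months, and the age and number of the animals behind each sample were not given in the sources used here.

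Cohesin is a ring-shaped protein complex that encircles DNA, holds sister chromatids together in dividing cells and extrudes chromatin loops in interphase. Smc1a and Smc3 form the arms of the ring, Rad21 closes it, and Stag1 or Stag2 docks on Rad21. The Nipbl and Mau2 proteins load and drive the complex, Pds5a and Pds5b act with the releasing factor Wapl, and Ctcf halts extrusion at its binding sites. In cells that do not divide, the interphase role remains, and the comparison of genotypes addresses how RNA output depends on cohesin.

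There was 1 sample for each genotype and time point. No test was run on any difference below, there is no replicate check, and every 95% interval covers counting error only. After 17 wells with more than 25000 UMIs were set aside, 1345 of 1362 cells remained, with 181 to 267 cells and 1197415 to 1734640 UMIs per sample. The median depth lay between 5544 and 7043 UMIs per cell and was highest in the Rad21-/- 8 h sample. A list of 8 macrophage genes was found in full, at 6214 to 10636 UMIs per 1000000 when summed over the list, and 100% of cells in each sample had at least 1 UMI of it. Levels in this list were uneven, from 5.19 to 27.7 UMIs per 1000000 for Mertk up to 2594 to 6487 for Lyz2. Of the 22 marker genes for neutrophils, dendritic cells, B cells, T cells, mast cells and stromal cells, 9 were in the table, and no list of them exceeded 32.6 UMIs per 1000000 in any sample. The cells with at least 1 UMI of such a list ran from 0% to 3.95% for neutrophils up to 13.9% to 17.1% for dendritic cells. In wild-type cells at 2 h, 45.5% of all UMIs lay in the wells set aside, against 1.71% to 16.96% in the other samples, so values that differ with all wells are given beside the results. The level of a gene is given in CPM, its UMIs per 1000000 UMIs of the sample, and its share is the part of the cells, in percent, in which 1 UMI or more was found. Levels are compared between samples and not between genes.

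Rad21, the kleisin subunit that closes the ring and the gene deleted here, was the member that separated the genotypes. In wild-type cells it was counted at 93 UMIs untreated, 61 at 2 h and 53 at 8 h of LPS. The corresponding counts were 9, 10 and 12 in Rad21-/- cells. As levels, wild-type cells held 64.3, 50.9 and 34.1 CPM at the respective time points and Rad21-/- cells held 5.46, 8.01 and 6.92. The 3 Rad21-/- samples therefore lay far below the 3 wild-type samples, and the highest upper interval limit of the former, 14.7 CPM, was below the lowest lower limit of the latter, 25.5. The log2 ratio of Rad21-/- to wild-type was -3.56 in untreated cells (interval -4.73 to -2.57), then -2.67 at 2 h (-3.80 to -1.69), and it was -2.30 at 8 h (-3.34 to -1.38). Among the genes with at least 50 UMIs over the samples compared, Rad21 ranked 7 of 9013 from the lowest ratio in untreated cells, 18 of 7597 at 2 h and 67 of 8632 at 8 h.

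The share of cells gave the same order. Rad21 UMIs were found in 25.6%, 24.9% and 18.2% of wild-type cells untreated, at 2 h and at 8 h. The respective shares were 2.62%, 5.43% and 5.41% in Rad21-/- cells. Over the time points, 152 of 672 wild-type cells were positive, or 22.6% (Clopper-Pearson interval 19.5 to 25.97), against 29 of 673 Rad21-/- cells, or 4.31% (2.90 to 6.13). With each cell thinned at random to 3800 UMIs, wild-type shares were 19.9%, 15.6% and 12.5%, against 1.82%, 1.32% and 2.99% for Rad21-/- cells. The order of the genotypes was the same after thinning.

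The UMIs that remained in Rad21-/- cells were spread thinly. Of the 29 positive cells, 27 held a single Rad21 UMI and the highest count was 2. Of the 152 positive wild-type cells, 35 held at least 2 UMIs and the highest count was 7. Each 3′ tag reports a transcript end. Where the floxed segment lies relative to that end was not given in the sources used here, so transcripts of undeleted alleles, transcripts of the deleted allele and UMIs that leaked between wells of a pool cannot be told apart. No cell type that lacks these genes was in the samples to measure such leakage.

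The libraries had been made in 24 pools, none with more than 1 time point, and 18 of them held at least 10 cells of each genotype. At each time point the pools divide the cells of 1 sample per genotype, so they are not replicates. Rad21 was lower in Rad21-/- than in wild-type cells of the same pool in 18 of 18. The share of positive cells ranged from 10% to 39.1% over the wild-type cells of these pools and from 0% to 15.4% over the Rad21-/- cells. In 3 untreated pools no Rad21-/- cell was positive, among 30, 26 and 19 cells, and 3 counts of these totals limit the shares of cells with a UMI to 10%, 11.5% and 15.8%, for counting error only.

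**Figure D1:**
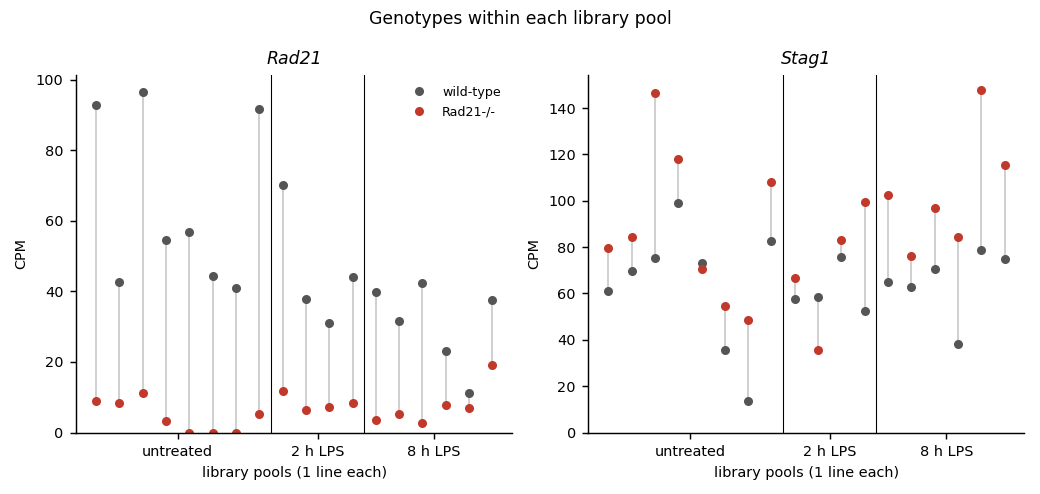
Level of Rad21 (left) and Stag1 (right) in CPM within each of the 18 library pools with at least 10 cells of each genotype, ordered by time point, with a line joining the wild-type (grey) and Rad21-/- (red) cells of a pool. Rad21 is lower in Rad21-/- cells in all 18 pools, and Stag1 is higher in 16. The pools divide the cells of the same samples and are not replicates.

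The other 9 genes, summed, did not follow Rad21. Their summed level was 551, 501 and 551 CPM in wild-type cells untreated, at 2 h and at 8 h and 563, 501 and 572 in Rad21-/- cells. The log2 ratio of Rad21-/- to wild-type was 0.03 in untreated cells (interval -0.11 to 0.17), 0.00 at 2 h (-0.17 to 0.16), then 0.06 at 8 h (-0.08 to 0.19). After thinning, a mean of 1.61 to 1.80 of the 9 genes was found per cell in the 6 samples. At least 1 of them was found in 80.9% to 90.9% of thinned cells. Within pools, the sum was higher in Rad21-/- cells in 10 and lower in 8 of 18. Each interval spans 0, and the upper limits stand at 1.13-, 1.12- and 1.14-fold. With the median over all genes at 8 h, 0.20, taken off, the 8 h ratio was -0.15 (-0.28 to -0.014). With all wells the ratio was -0.13 at 2 h (-0.26 to -0.0032) and 0.13 at 8 h (0.0079 to 0.25), so both intervals excluded 0, in opposite directions.

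For single genes, a difference of at least 1.5-fold was counted among those with at least 50 UMIs over the samples compared, which 8 of the 9 genes reached at each time point and Mau2 never did. In untreated cells 0 of 8 were higher and 0 of 8 lower in Rad21-/- cells, where 6.08% of all 9013 genes were higher and 12.2% lower. At 2 h 0 of 8 were higher and 1 of 8, Smc1a, was lower, where 11.3% of all 7597 genes were higher and 10.8% lower. At 8 h 0 of 8 were higher and 0 of 8 lower, where 22.2% of all 8632 genes were higher and 10.1% lower. The median log2 ratio of the 9 genes was 0.02, 0.08 and 0.05 at the 3 time points, beside -0.04, 0.04 and 0.20 over all genes. At 8 h the median over all genes thus lay 0.20 towards Rad21-/- cells, and 3 of the 9 genes lay above that median and 6 below it.

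**Figure D2:**
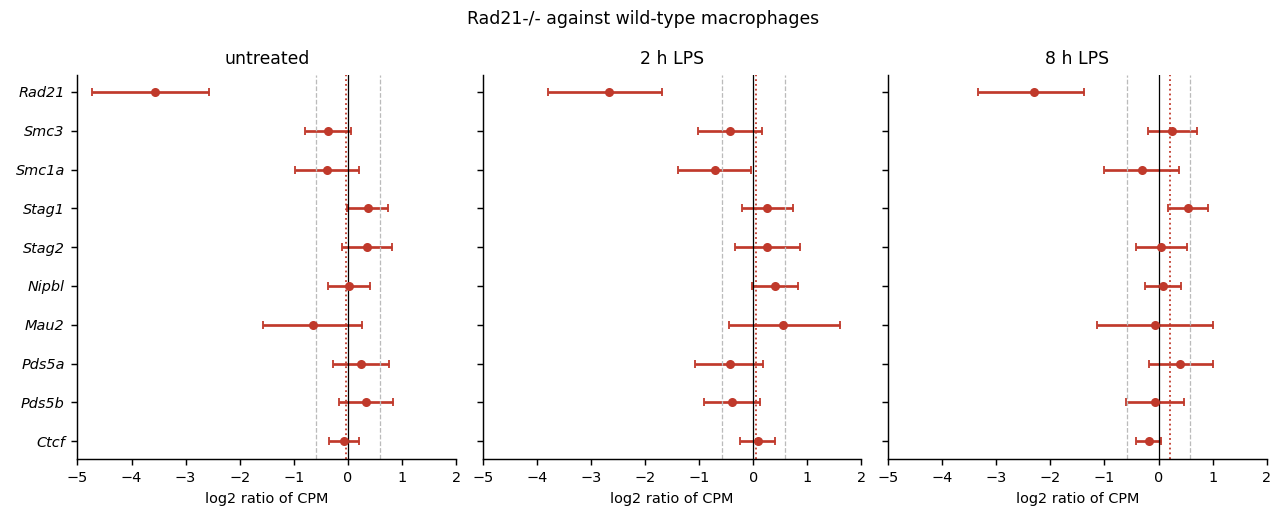
Log2 ratio of CPM in Rad21-/- against wild-type cells for each of the 10 genes at each time point. Bars are 95% counting intervals, the dotted red line is the median over all genes, and dashed grey lines mark 1.5-fold. Rad21 lies at -3.56, -2.67 and -2.30, and the other genes lie between -0.70 and 0.56.

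Smc3 and Smc1a form the arms of the ring, and a difference between them was not tested. Smc3 was counted at 70.6, 48.4 and 46.9 CPM in wild-type cells untreated, at 2 h and at 8 h and at 54.6, 36.0 and 55.9 in Rad21-/- cells. The log2 ratio of genotypes was -0.37 (interval -0.80 to 0.05), -0.43 (-1.02 to 0.16) and 0.25 (-0.20 to 0.71). Smc3 was thus lower in Rad21-/- cells at the first 2 time points and higher at 8 h, and no interval excluded 0. Thinning turned the untreated ratio to 0.25, so its sign was not stable, and with all wells the 2 h ratio was -0.72 (-1.19 to -0.27). Smc1a stood at 38.1, 41.8 and 25.7 CPM in wild-type cells, against 29.1, 25.6 and 20.8 in Rad21-/- cells. It was lower in Rad21-/- cells at each time point, with log2 ratios of -0.39 (-0.98 to 0.20), -0.70 (-1.39 to -0.04) and -0.31 (-0.9999 to 0.38), and in 14 of 18 pools, including 4 of 4 at 2 h. The 2 h ratio was -0.10 after thinning and -0.84 with all wells. Smc1a lies on chromosome X at 152016428-152061973 (GRCm38.p6), where Gm15267 and Ribc1 overlap it, with UMIs of their own in the table, so its reads may be shared with them.

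Stag1 and Stag2 are alternative subunits of which a cohesin ring holds a single copy. Stag1 was counted at 69.9, 60.1 and 63.6 CPM in wild-type cells untreated, at 2 h and at 8 h, and at 89.8, 72.1 and 92.2 in Rad21-/- cells. It was higher in Rad21-/- cells at each time point, and the lowest Rad21-/- level stood above the highest wild-type level. The log2 ratio was 0.36 in untreated cells (interval -0.01 to 0.74), 0.26 at 2 h (-0.20 to 0.73), then 0.54 at 8 h (0.17 to 0.91). Of the other 9 genes at the 3 time points, only Stag1 at 8 h had an interval above 0, and only Smc1a at 2 h had one below 0. The intervals are not adjusted for the number of genes and time points. The median over all genes at 8 h was 0.20, and with it taken off the interval was -0.04 to 0.71. With the medians of the other time points taken off, the Stag1 ratio was 0.41 in untreated cells (0.03 to 0.79) and 0.22 at 2 h (-0.24 to 0.69). Within pools Stag1 was higher in Rad21-/- cells in 16 of 18, with 7 of 8 untreated, 3 of 4 at 2 h and 6 of 6 at 8 h. These pools divide the same UMIs, and counts in a pool were as low as 1 UMI in wild-type and 5 in Rad21-/- cells. After thinning the ratios were 0.51, -0.07 and 0.62, so the 2 h difference changed sign. With all wells they were 0.33, 0.04 and 0.43. The 8 h difference was below 1.5-fold in the cells used, where 1.5-fold is a log2 ratio of 0.58, and lay past it after thinning and, at 0.60, without 1 of the 8 h pools.

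Stag2 moved less evenly. It was counted at 47.7, 37.6 and 46.9 CPM in wild-type cells, against 60.7, 44.9 and 48.4 in Rad21-/- cells, with log2 ratios of 0.35, 0.26 and 0.05 whose intervals each spanned 0. In untreated cells the ratio was -0.05 without the pool in which Stag2 differed most, at 32.1 CPM in wild-type and 100.1 in Rad21-/- cells. Of the UMIs of Stag1 and Stag2 together, Stag1 held 59.3% in wild-type (interval 54.6 to 63.8) and 62.4% in Rad21-/- cells (58.5 to 66.2), and the range over the 6 samples was 57.6% to 65.6%. The share of Stag1 in the pair was therefore not resolved between genotypes at this depth. As a share of molecules captured at 3′ ends, it is not a ratio of proteins.

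Promoter sequences of 300 bases, from 250 before to 50 after the transcription start, were matched in RefSeq (GRCm38.p6) for 7 of the 10 genes, in 8 entries since Mau2 has 2. The entries of Stag1, which was higher in Rad21-/- cells in most pools, and of Ctcf, which was higher at 8 h of LPS in both genotypes, are shown on the plus strand, at chr9:100643198-100643497 and chr8:105636288-105636587. Capitals mark matches on either strand to the GC box (GGGCGG), the CCAAT box as its name spells it, or an NF-kB-type site (GGGA and, after any 4 bases, CC).
Stag1: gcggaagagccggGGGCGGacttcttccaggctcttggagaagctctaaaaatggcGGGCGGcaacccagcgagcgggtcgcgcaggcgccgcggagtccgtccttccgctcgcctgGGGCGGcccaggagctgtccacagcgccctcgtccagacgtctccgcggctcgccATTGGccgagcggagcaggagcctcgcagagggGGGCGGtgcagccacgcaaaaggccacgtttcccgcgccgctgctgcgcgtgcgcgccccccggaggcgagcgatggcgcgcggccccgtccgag
Ctcf: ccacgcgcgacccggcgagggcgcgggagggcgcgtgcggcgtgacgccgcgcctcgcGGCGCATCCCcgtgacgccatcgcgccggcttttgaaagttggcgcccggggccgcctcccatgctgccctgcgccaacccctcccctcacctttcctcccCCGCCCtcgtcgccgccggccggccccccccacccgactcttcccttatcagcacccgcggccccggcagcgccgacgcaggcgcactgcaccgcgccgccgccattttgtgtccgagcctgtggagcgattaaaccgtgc
Stag1 has 4 GC boxes and 1 CCAAT box, and Ctcf has 1 GC box and 1 NF-kB-type match. A GC box was found in 7 of the 8 entries, against 35.7% of all 32851 promoters of the same length, and the entries were rich in G and C, with a median of 69.3% against 52.7%. A CCAAT box was found in 3 of 8 (37.4% of all promoters) and an NF-kB-type site in 2 of 8 (20.7%). No entry held a TATA box (TATAAA, 13.6%), an interferon-response element (GAAA, any 2 bases, then GAAA again, 3.44%), an ETS-type site (CCGGAAG, 8.86%) or a CREB-type site (TGACGTCA, 1.79%). These are matches of letters in a window, and no binding was measured. The RefSeq gene model of Stag1 starts upstream of this window, at position 100597709 of chromosome 9, so the entry belongs to a start inside the model.

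Nipbl and Mau2, the loader pair, showed no common direction. Nipbl, the subunit that drives loop extrusion, was counted at 76.1, 66.8 and 89.3 CPM in wild-type cells untreated, at 2 h and at 8 h and at 77.1, 88.1 and 94.5 in Rad21-/- cells. The log2 ratio of genotypes was 0.02, 0.40 (interval -0.03 to 0.83) and 0.08, and Nipbl was higher in Rad21-/- cells in 13 of 18 pools, including 4 of 4 at 2 h. After thinning the 2 h ratio was -0.01, and no interval excluded 0 at any time point. Mau2, the partner that stabilises Nipbl, was the least often captured of the 10 in wild-type cells, and above only Rad21 in Rad21-/- cells, with 15 to 26 UMIs per sample and shares of 6.32% to 11.96%. Its log2 ratios of -0.64, 0.56 and -0.07 each had an interval that spanned 0 and reached past 1.5-fold, so a difference of that size was not detectable at this depth.

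Pds5a and Pds5b bind the ring beside Stag1 or Stag2 and take part in both its release and its stabilisation. Pds5a stood at 39.4, 43.4 and 27.0 CPM in wild-type cells, against 46.7, 32.0 and 35.7 in Rad21-/- cells, and Pds5b at 40.1, 61.0 and 38.6 in wild-type cells, against 50.4, 46.5 and 36.9 in Rad21-/- cells. At 2 h each was lower in Rad21-/- cells in 4 of 4 pools, with log2 ratios of -0.44 for Pds5a (interval -1.07 to 0.18) and -0.39 for Pds5b (-0.91 to 0.13). In untreated cells each was higher in Rad21-/- cells in 6 of 8 pools, with ratios of 0.24 and 0.33. The thinned 2 h ratio of Pds5b was -0.99 (interval -1.82 to -0.21), and with all wells it was -0.44 (-0.89 to -0.010). Pds5a held 44.2% of the UMIs of the pair in wild-type (38.8 to 49.6) and 46.6% in Rad21-/- cells (41.5 to 51.7), and these intervals overlap.

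Ctcf, the zinc finger protein at loop boundaries, was the most often captured of the 10 in every sample. It was counted at 150.8, 129.4 and 202.4 CPM in wild-type cells untreated, at 2 h and at 8 h, and at 143.2, 136.98 and 178.1 in Rad21-/- cells. The log2 ratios of genotypes were -0.07 (interval -0.35 to 0.20), 0.08 (-0.24 to 0.40) and -0.18 (-0.42 to 0.05). With the median over all genes at 8 h, 0.20, taken off, the 8 h ratio was -0.39 (-0.62 to -0.16), so Ctcf lay below that median. After thinning the 8 h ratio was -0.35 (-0.68 to -0.017). Within pools Ctcf was lower in Rad21-/- cells in 9 and higher in 9 of 18. The level varied far more between pools than between genotypes, from 58.6 to 443.7 CPM over the wild-type cells of the 18 pools and from 51.7 to 344.0 over the Rad21-/- cells. Pools with a high level in one genotype had a high level in the other, with Pearson's r of 0.80 and Spearman's rho of 0.85 across the 18 pools. The genotypes of a pool share its library and time point. The next highest r was 0.64, for Stag1, and that for Rad21 was 0.12. Ctcf lies on chromosome 8 at 105636474-105682922 (GRCm38.p6), and Gm5914 and Gm5915, which overlap it, had 51 and 173 UMIs of their own, so its count may be shared with them.

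**Figure D3:**
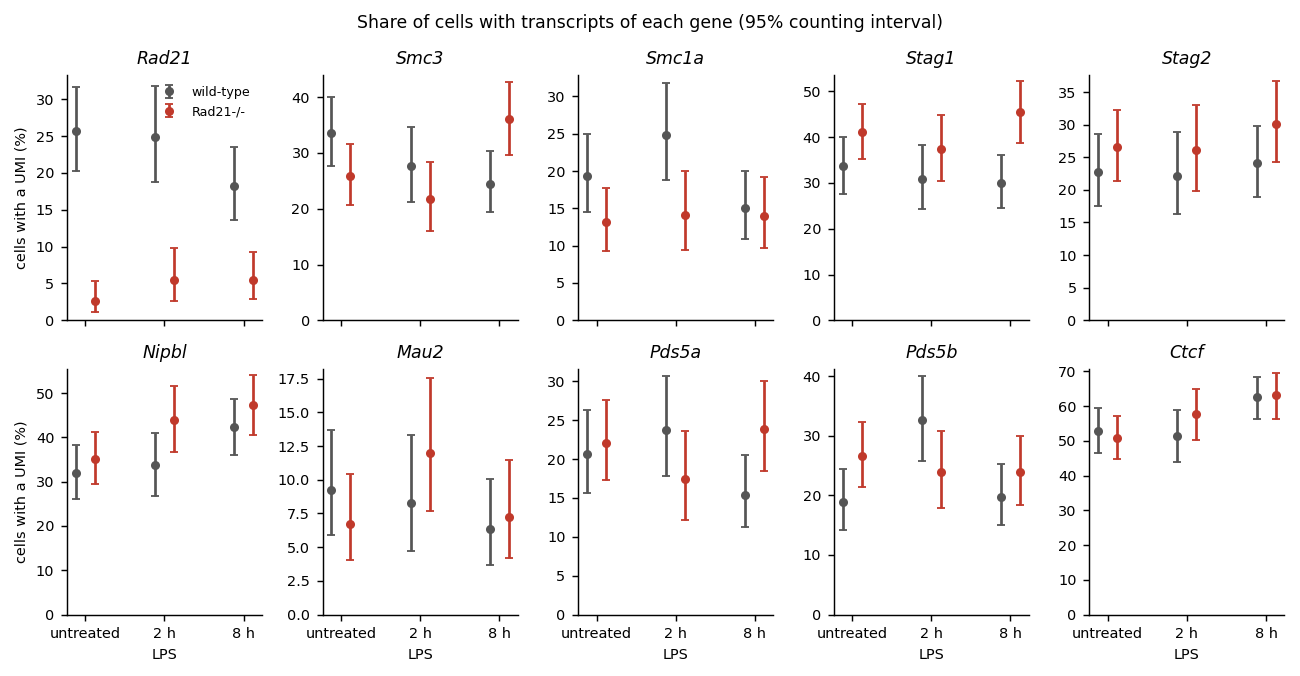
Percentage of cells with at least 1 UMI of each of the 10 genes in the 6 samples, wild-type in grey and Rad21-/- in red, with 95% Clopper-Pearson intervals. For Rad21 the wild-type points lie between 18.2% and 25.6% and the Rad21-/- points between 2.62% and 5.43%, and for the other 9 genes the intervals of the genotypes overlap at each time point except for Stag1 at 8 h. The cells shown are not thinned. After thinning, the Stag1 shares at 8 h were 20.98% in wild-type and 26.87% in Rad21-/- cells, and their intervals overlap.

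Differences after LPS were smaller than that of Rad21 between genotypes. Since each pool held a single time point, the effect of LPS and that of the pool cannot be told apart, and the wild-type and Rad21-/- cells of a time point mostly came from the same pools. The summed level of the 10 genes was 615, 552 and 585 CPM in wild-type cells untreated, at 2 h and at 8 h, and 569, 509 and 579 in Rad21-/- cells. Against untreated cells, the log2 ratio of the wild-type sum was -0.16 at 2 h (interval -0.30 to -0.01) and reached -0.07 at 8 h (-0.21 to 0.06). The sign at 2 h depended on the deep wells, since with all wells the ratio was 0.12 (0.0037 to 0.25), and after thinning it was -0.0055. That of the Rad21-/- sum was -0.16 after 2 h (-0.31 to -0.01) and 0.03 after 8 h (-0.10 to 0.16), and the 2 h value was -0.029 with all wells (-0.16 to 0.11). The median over all genes was -0.11 and -0.24 for wild-type cells and -0.03 and -0.02 for the Rad21-/- genotype.

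In wild-type cells at 2 h, 1 of 9 genes with at least 50 UMIs, Pds5b, was higher by 1.5-fold and 0 of 9 were lower, where 8% of all 8238 genes were higher and 13.5% lower. At 8 h 0 of 9 were higher and 2 of 9, Rad21 and Smc3, were lower, where 12.8% of all 8528 genes were higher and 29.9% lower. In Rad21-/- cells at 2 h 0 of 8 were higher and 1 of 8, Smc3, was lower, where 8.87% of all 8459 genes were higher and 8.76% lower. At 8 h 0 of 8 were higher and 0 of 8 lower, where 14.7% of all 9259 genes were higher and 14.7% lower. The shares of these 8 or 9 genes were thus near or below those of all genes.

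Rad21 in wild-type cells was lower at 8 h than in untreated cells, with a log2 ratio of -0.92 (interval -1.43 to -0.42), beside a median of -0.24 over all genes. After thinning the 8 h ratio was -0.66, with an interval that reached 0 (-1.36 to 0.038). In thinned wild-type cells outside the cycling range described below, Rad21 stood at 37.3 CPM untreated and 38.1 at 8 h. The range held 22.5% of thinned wild-type cells untreated and 1.34% at 8 h. Its part in the 8 h ratio was not tested. At 2 h the log2 ratio of Rad21 in wild-type cells was -0.34 (-0.83 to 0.14). Smc3 was lower in wild-type cells at 2 h, at -0.54 (-1.03 to -0.06), and at 8 h, at -0.59 (-1.04 to -0.14). Smc3 in Rad21-/- cells was lower at 2 h, at -0.60 (-1.15 to -0.07), and level at 8 h, at 0.03 (-0.39 to 0.46). With all wells the 2 h ratio of Smc3 in wild-type cells was -0.12 (-0.49 to 0.26). After thinning the 8 h ratio of Smc3 in wild-type cells was -0.13. Pds5b in wild-type cells was higher at 2 h, at 0.60 (0.09 to 1.13), and was back at its untreated level at 8 h, at -0.06. The 2 h ratio of Pds5b in Rad21-/- cells was -0.12 (-0.63 to 0.38), and the difference between the genotypes in this ratio was not tested.

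Ctcf was higher at 8 h in both genotypes. They share no sample in these comparisons, but their cells at a time point mostly came from the same pools. The log2 ratio was 0.42 in wild-type (interval 0.17 to 0.68) and 0.31 in Rad21-/- cells (0.07 to 0.57), and the share of positive cells went from 52.9% to 62.5% and from 50.9% to 63.1%. After thinning, the shares went from 39.8% to 53.1% and from 39.5% to 46.8%. A single pool carried much of the difference. Without the 8 h pool with the highest Ctcf level, at 443.7 CPM in wild-type and 344.0 in Rad21-/- cells, the ratio was 0.14 in wild-type and 0.04 in Rad21-/- cells. Without an untreated pool at 253.3 CPM in Rad21-/- cells, the ratio in that genotype was 0.58. Over pools, the level in wild-type cells ran from 79.7 to 236.2 CPM with a median of 147.8 in 8 untreated pools and from 88.2 to 443.7 with a median of 199.3 in 6 pools at 8 h, so the ranges overlap.

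**Figure D4:**
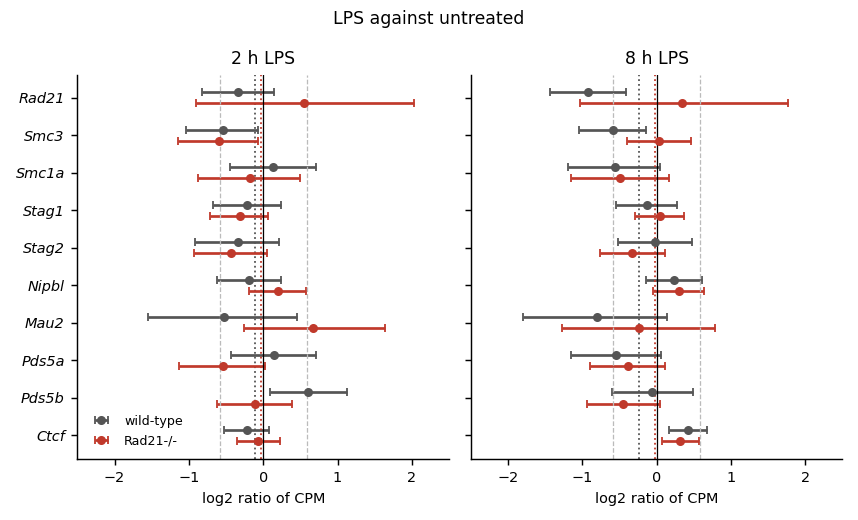
Log2 ratio of CPM after LPS against untreated cells for each of the 10 genes, wild-type in grey and Rad21-/- in red, with 95% counting intervals. Dotted lines are the medians over all genes and dashed lines mark 1.5-fold. Ctcf lies above 0 in both genotypes at 8 h, and the intervals of Rad21 in Rad21-/- cells are the widest.

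In wild-type cells untreated and at 2 h, Rad21 was counted at a higher level in cells that also held cell cycle transcripts. Each cell thinned to 3800 UMIs was placed in a cycling range if it held at least 3 UMIs over a list of 10 cell cycle genes. This is a range and not a cell type, and 12 untreated wild-type cells lay exactly at the limit and 20 at 1 UMI below it. The range held 22.5%, 27.5% and 1.34% of wild-type cells untreated, at 2 h and at 8 h, against 9.09%, 1.97% and 1.49% of Rad21-/- cells. Shares under 2% stand for 3 cells each, so values inside the range are given only for the other 3 samples. In untreated wild-type cells Rad21 stood at 134.6 CPM in the 43 cells of the range and at 37.3 in the cells outside it, a log2 ratio of 1.85 (interval 0.92 to 2.79). At 2 h the levels were 83.7 in 44 cells of the range and 31.8 outside it, a log2 ratio of 1.40 (0.22 to 2.58). In untreated Rad21-/- cells the range held 1 Rad21 UMI in 20 cells and the other cells held 4, so the ratio of 1.32 was not resolved (-4.30 to 4.66).

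Summed, the other 9 genes did not separate the cells as Rad21 did. Their sum had log2 ratios of 0.45 (interval 0.11 to 0.77) in untreated wild-type cells, -0.12 (-0.49 to 0.25) at 2 h and 0.14 (-0.31 to 0.57) in untreated Rad21-/- cells. Single genes varied. In untreated wild-type cells the log2 ratio was 1.09 for Stag2 (-0.03 to 2.16), 0.84 for Smc3 (-0.21 to 1.82) and -0.04 for Nipbl (-1.16 to 0.95). The intervals of these 3 genes overlap that of Rad21. Stag1 in untreated Rad21-/- cells was higher in the cycling range, at 184.2 against 85.5 CPM, a log2 ratio of 1.11 (0.16 to 1.96). Cells in the range were deeper in wild-type, with a median of 7493 against 5962 UMIs before thinning in untreated cells and 8281.5 against 5704 at 2 h.

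Because fewer Rad21-/- than wild-type cells fell in the cycling range in untreated cells and at 2 h, the ratio of genotypes was also taken over cells outside it. For Rad21 it was -2.83 in untreated cells (interval -4.83 to -1.26), -3.17 at 2 h (-6.35 to -1.05), then -2.26 at 8 h (-3.81 to -0.98). Over all thinned cells, the untreated ratio was -3.31 (-5.002 to -1.98), and the intervals overlap. For Stag1 it was 0.50 in untreated cells (-0.12 to 1.14), -0.05 at 2 h and 0.63 at 8 h (0.09 to 1.17). The sum of the 9 genes in untreated cells was 0.29 outside the range (0.07 to 0.52) and 0.19 in all thinned cells (-0.0022 to 0.39).

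**Figure D5:**
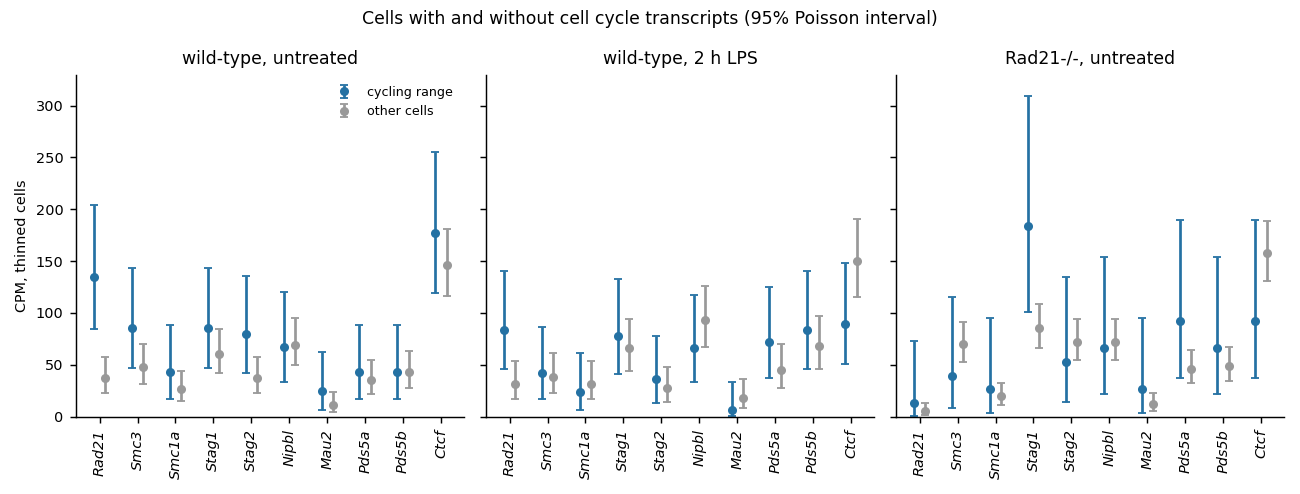
Level of each gene in CPM in thinned cells inside (blue) and outside (grey) the cycling range, for the 3 samples with at least 20 cells inside it, with 95% Poisson intervals. Rad21 stands at 134.6 against 37.3 in untreated wild-type cells and at 83.7 against 31.8 at 2 h, while most other genes overlap.

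Of 31 further genes that act with cohesin or belong to related complexes, 29 were in the table. Between genotypes, 0 of 20 with at least 50 UMIs were higher by 1.5-fold and 2, Pttg1 and Smc2, lower in untreated Rad21-/- cells. At 2 h 1 of 15, Maz, was higher and 4, Smc2, Smc4, Ncapg2 and Smc6, were lower, and at 8 h 2 of 16, Ncaph2 and Nsmce3, were higher and 2, Pttg1 and Smc5, lower. After LPS in wild-type cells, 0 of 20 were higher and 1, Ctcfl, lower at 2 h, and 2 of 18, Wapl and Pttg1, were higher and 6, Hdac8, Smc2, Smc4, Ncaph2, Nsmce1 and Maz, lower at 8 h. Among Rad21-/- cells, 0 of 19 were higher and 3, Smc4, Nsmce1 and Ctcfl, lower at 2 h, and 2 of 19, Pttg1 and Nsmce3, were higher and 4, Smc2, Ncapg2, Nsmce1 and Maz, lower at 8 h. The shares of all genes past the same limit are those given above for each comparison. Wapl, which releases cohesin from DNA, was counted at 53.97, 63.5 and 83.5 CPM in wild-type cells, against 58.9, 69.7 and 77.8 in Rad21-/- cells, and its log2 ratio at 8 h in wild-type cells was 0.63 (interval 0.21 to 1.05). Pttg1, the securin that restrains the protease which cleaves Rad21 at anaphase, was counted at 53.3, 37.6 and 170.9 in wild-type cells, against 33.4, 39.3 and 95.7 in Rad21-/- cells. Its log2 ratio of genotypes was -0.67 in untreated cells (-1.20 to -0.16) and -0.84 at 8 h (-1.13 to -0.55).

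Smc2 and Smc4, the arms of condensin, which compacts chromosomes for division, were lower in Rad21-/- cells at 2 h, with log2 ratios of -0.96 (interval -1.78 to -0.18) and -0.87 (-1.47 to -0.29). In wild-type cells at 8 h they were lower than in untreated cells, at -3.43 (-5.11 to -2.11) and -1.31 (-1.82 to -0.82). The summed cell cycle list moved alongside them, at 654, 567 and 97.7 CPM in wild-type cells, against 283, 120 and 105.5 in Rad21-/- cells. Its part in these ratios was not tested. Rad21l, the germline relative of Rad21, was counted at 22.8, 23.4 and 22.5 in wild-type cells, against 26.1, 31.2 and 25.9 in Rad21-/- cells, and each of its intervals between genotypes spanned 0.

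Among 5080 genes with at least 300 UMIs over the 6 samples and UMIs in each of them, those whose levels followed Rad21 most closely by Pearson's r over the samples were Rps24-ps2 at 0.996, Ppm1l at 0.995, Anxa4 at 0.988, Lpl at 0.985 and Gja5 at 0.984. The 6 samples fall into 2 genotypes for Rad21, so r mostly reflects that split. Of the other cohesin genes with enough UMIs, Smc3 had the highest r, at 0.34, and Stag1 the lowest, at -0.83.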

How the data were processed

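MARS-seq UMI counts per gene and cell were deposited by the authors without normalization. They demultiplexed reads by pool and cell barcode, mapped them to the mouse genome (GRCm38.p4), discarded wells by spike-in content and mapping, and collapsed reads with the same UMI. Column names gave the sample of all 1362 cells, and 0 columns were left over. Wells with more than 25000 UMIs were set aside, the UMIs of the remaining wells were summed per sample, and levels are CPM (UMIs per 1000000). With 1 sample per group no test was run. Ratios carry exact conditional binomial intervals, sums exact Poisson intervals and shares Clopper-Pearson intervals, at 95%. Alternatives were all wells, thinning to 3800 UMIs in 1 random draw, means over cells, scaling without the 50 most abundant genes, leaving out each pool, a 2-fold limit and a minimum of 100 UMIs. Use of pools with at least 10 cells of each genotype alone was added after the data were seen. All 10 genes are named, as are listed genes described for their role or past 1.5-fold and the 5 genes most like Rad21. The genes, lists and limits were chosen with earlier results of these data known. Sums and tables were made in Python 3.11.15 with pandas 2.3.3 and numpy 2.4.6, intervals with scipy 1.17.1 and figures with matplotlib 3.10.9. Promoters and positions are from RefSeq (GRCm38.p6). The smRNA-FISH and bulk experiments of the study were not analysed here.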

Additional observations from a re-analysis of the deposited data

Results flagged for a closer look

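The log2 ratio after LPS had opposite signs in the genotypes for 8 of the 10 genes at 2 h, 8 h or both. The share of all genes with opposite signs was not computed, so this count has no background to be set against. For 4 of the 8 genes at least 1 of the ratios was past 1.5-fold, and none of these differences was tested. These 4 are given here. Over both samples compared, Mau2 had 41 UMIs in wild-type and 42 in Rad21-/- cells at 2 h. Rad21 had 21 in Rad21-/- cells at 8 h. These totals are below the minimum used for the counts of genes past 1.5-fold above. For Mau2 the log2 ratio at 2 h against untreated was -0.52 in wild-type and 0.68 in Rad21-/- cells, and for Pds5b it was 0.60 and -0.12. For Rad21 the log2 ratio at 8 h was -0.92 in wild-type and 0.34 in Rad21-/- cells, the latter from 9 and 12 UMIs, and for Smc3 it was -0.59 and 0.034. Mau2 also differed between time points in the ratio of Rad21-/- to wild-type, at -0.64 in untreated cells and 0.56 at 2 h. In each of these pairs at least 1 of the intervals spans 0.

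The 17 wells with more than 25000 UMIs, which no comparison used, also held UMIs of these genes. In 10 wild-type wells Rad21 stood at 69.9 CPM (interval 56.3 to 85.9) and the other 9 genes at 698. In 7 Rad21-/- wells Rad21 stood at 8.61 (3.16 to 18.7) and the other 9 genes at 781. These values, pooled over time points, can be set beside the cells used, in which Rad21 stood at 49.3 and 6.69 CPM and the other 9 genes at 537 and 550.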

How the results depend on the processing

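No analysis of paired replicate samples was possible because each group has 1 sample and the labels give no replicate numbers. Genotypes were compared within the library pools they share, which are not replicates. The log2 ratio of Rad21 between genotypes kept its sign and moved by less than its counting interval in every alternative run, with ranges without 1 pool of -3.93 to -3.44 in untreated cells, -2.79 to -2.53 at 2 h and -2.55 to -2.00 at 8 h. The sum of the other 9 genes ranged from -0.0041 to 0.073, from -0.076 to 0.055 and from 0.0089 to 0.12 without 1 pool, and was 0.19 in thinned untreated cells and -0.13 and 0.13 with all wells at 2 and 8 h. The sum of the 10 genes after LPS ranged without 1 pool from -0.23 to -0.080 at 2 h and from -0.18 to 0.025 at 8 h in wild-type, and from -0.22 to -0.033 and from -0.077 to 0.12 in Rad21-/- cells. Thinning gave -0.0055 and 0.11 in wild-type at 2 and 8 h and -0.31 in Rad21-/- cells at 2 h, and all wells gave 0.12 in wild-type at 2 h. Counts of genes past the limit, at 0 to 2, moved easily. Lower genes between genotypes at 2 h were 2 with all wells, with thinning and with means over cells and 0 at 2-fold or at least 100 UMIs, and higher genes were 1 at each time point with thinning and 1 at 8 h in pools with 10 cells of each genotype. In wild-type cells, higher genes at 2 h were 0 with means over cells and at 2-fold and lower genes 1 with thinning or means over cells, and lower genes at 8 h were 1 with all wells, with thinning and with other scaling, 4 in those pools and 0 at 2-fold. In Rad21-/- cells, lower genes at 2 h were 0 with all wells and at 2-fold and 2 with thinning or other scaling, and at 8 h 1 with thinning. Without 1 pool these counts ran from 0 to 1, except that lower genes ran from 1 to 3 in wild-type at 8 h and from 0 to 2 in Rad21-/- cells at 2 h, and that higher genes stayed at 0 between genotypes at 2 h and in Rad21-/- cells after LPS. The cause was not tested. Of 846 ratios of single genes without 1 pool, 3 moved beyond their interval, all of Ctcf at 8 h. Shares fall with thinning, and 49 of 60 moved. With 9 to 12 Rad21 UMIs per Rad21-/- sample, a change after LPS in these cells could not be resolved.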

Other observations

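Ctcfl, the testis-type relative of Ctcf, which is known for expression in germ cells, was counted at 247.7, 126.1 and 357.3 CPM in wild-type cells untreated, at 2 h and at 8 h and at 246.4, 127.4 and 347.0 in Rad21-/- cells. Genotypes differed by log2 ratios of -0.01, 0.01 and -0.04, while the ratio to untreated cells was -0.97 at 2 h and 0.53 at 8 h in wild-type (intervals -1.26 to -0.70 and 0.33 to 0.72) and -0.95 and 0.49 in Rad21-/- cells. Each time point had its own pools, and whether these UMIs come from Ctcfl transcripts was not tested.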
